A study of Mus musculus with 12 samples.

Results

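Cell cycle transcripts were followed as a set of 35 genes in the gonadal (peri-uterine) white fat of pregnant mice. The members were taken by symbol from the 20632 genes of the count tables, and all 35 were found. Of these, 11 act in S phase (nucleotide supply and DNA replication) and 24 act in mitosis. In 30 members the counts were high enough for testing, 10 of the S phase genes and 20 of the mitotic genes, among 12175 genes tested. Tk1, Ccnb2, Ccna2, Bub1 and Aurkb were too low.

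Expression was measured by QuantSeq, a 3' RNA sequencing method that counts reads near the ends of transcripts, in 12 mice at E17.5 of pregnancy. The WT vehicle group (4 mice) is labelled Tnfrsf11a (Rank), Foxn1 Cre- and wildtype. The KO vehicle group (4 mice) is labelled Foxn1 Cre+ and knock-out, and the KO Treg group (4 mice) has the same genotype with the treatment labelled Treg. Tnfrsf11a encodes RANK, and Foxn1-driven Cre acts in epithelium, chiefly that of the thymus, so that RNA of whole fat does not check the deletion. The labels do not say what the vehicle was, nor give the dose or time of the Treg treatment. All 3 comparisons draw on the same 12 libraries, so each group enters a pair of comparisons.

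In S phase a cell copies its DNA: ribonucleotide reductase and thymidylate synthase supply the building blocks, the MCM helicase opens the double helix, and the PCNA clamp holds the polymerase on it. In mitosis CDK1 with its cyclins starts chromosome condensation, kinetochores attach the chromosomes to the spindle, and the APC/C then destroys the cyclins so that the cell can divide. S phase genes are commonly driven by E2F factors, whereas many mitotic genes are switched on later through a CHR element with nearby CCAAT boxes, which bind the MuvB complexes (with B-MYB and FOXM1) and NF-Y. Mature fat cells rarely divide, and such transcripts in fat are usually ascribed to progenitors, endothelial cells and immune cells.

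The members' promoters differed along these lines. RefSeq windows (GRCm38.p6) from 250 bases before to 50 bases after a start site were matched by symbol for 30 of the 35 members, giving 11 windows of 10 S phase genes and 21 windows of 20 mitotic genes. Mcm4, Ccna2, Aurkb, Tpx2 and Kif20a had no window. The motifs searched on both strands were the CHR (TTTGAA or TTTAAA, the latter its own reverse complement), CCAAT, and an E2F core (TTCCCGC, or else TTGGCGC, or else TTCGCGC, or else TTGCCGC). A CHR lay in 18 of 21 mitotic windows (85.7%) and in 4 of 11 S phase windows (36.4%), against 18.8% of 11948 windows of genes tested and 27.6% of all 32851 windows. An E2F core lay in 4 mitotic windows (19.0%) and in 7 S phase windows (63.6%), against 16.2% and 9.6%. CCAAT was frequent in both, with 85.7% of mitotic and 81.8% of S phase windows against 37.1% and 37.4%. CHR and CCAAT together were found in 81.0% of mitotic windows, 27.3% of S phase windows and 7.2% of windows of genes tested.

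**Figure D1:**
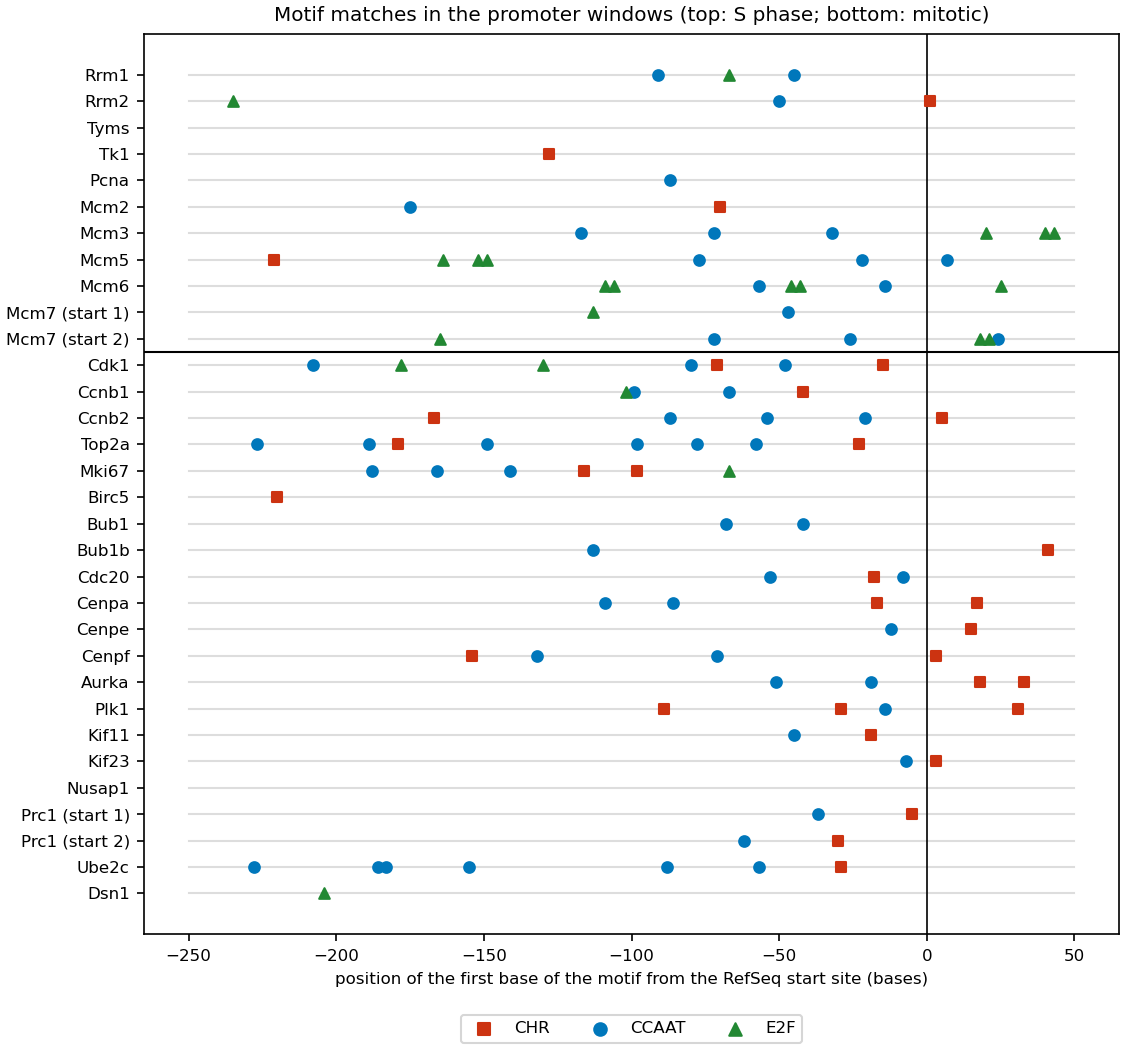
Matches of the CHR (squares), CCAAT (circles) and E2F core (triangles) in each promoter window; the x axis is the position of the motif's first base from the RefSeq start site, in bases. CHR matches crowd around the start site of the mitotic genes below the line, and E2F matches are mostly in the MCM genes above it; Nusap1, Bub1 and Dsn1 are the mitotic rows without a CHR.

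The stretches before the start site are shown for 3 mitotic genes with a CHR, for Dsn1 as a mitotic gene without one, and for 2 MCM genes with E2F cores. Capitals mark every whole match of these motifs on either strand, so that CCAAT on the opposite strand reads ATTGG. The Cdk1 and Dsn1 stretches end before the annotated gene. In Mcm6 and Mcm5 a pair of E2F words on opposite strands overlap into 1 run of capitals.
Cdk1 (chr10:69352939-69353112, minus strand, -200 to -27): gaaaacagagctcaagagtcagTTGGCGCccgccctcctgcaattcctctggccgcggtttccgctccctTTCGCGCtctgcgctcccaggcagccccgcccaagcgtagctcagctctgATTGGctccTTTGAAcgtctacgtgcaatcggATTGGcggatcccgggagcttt
Top2a (chr11:99024190-99024389, minus strand, -200 to -1): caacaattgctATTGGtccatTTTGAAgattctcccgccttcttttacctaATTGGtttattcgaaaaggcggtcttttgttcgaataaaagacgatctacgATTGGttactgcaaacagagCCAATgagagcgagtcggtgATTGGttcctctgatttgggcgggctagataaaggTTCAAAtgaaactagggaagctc
Plk1 (chr7:122159235-122159434, plus strand, -200 to -1): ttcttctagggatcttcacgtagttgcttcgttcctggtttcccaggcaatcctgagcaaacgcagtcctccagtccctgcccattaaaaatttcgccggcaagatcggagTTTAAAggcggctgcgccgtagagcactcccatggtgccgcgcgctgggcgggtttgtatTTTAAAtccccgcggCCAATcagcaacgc
Dsn1 (chr2:157007155-157007275, minus strand, -200 to -80): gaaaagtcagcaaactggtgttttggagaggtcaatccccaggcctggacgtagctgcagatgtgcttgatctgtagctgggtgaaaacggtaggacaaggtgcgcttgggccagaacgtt
Mcm6 (chr1:128359706-128359905, minus strand, -200 to -1): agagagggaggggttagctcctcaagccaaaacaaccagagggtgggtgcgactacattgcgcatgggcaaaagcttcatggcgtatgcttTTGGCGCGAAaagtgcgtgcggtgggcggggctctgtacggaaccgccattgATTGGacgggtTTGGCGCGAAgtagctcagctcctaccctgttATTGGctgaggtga
Mcm5 (chr8:75109309-75109508, plus strand, -200 to -1): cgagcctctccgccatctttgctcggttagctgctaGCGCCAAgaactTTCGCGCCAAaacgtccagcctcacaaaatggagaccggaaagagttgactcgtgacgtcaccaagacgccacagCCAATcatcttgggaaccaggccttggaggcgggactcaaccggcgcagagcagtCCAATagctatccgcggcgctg

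Plk1 carried TTTAAA at positions -89 and -29, with a TTTGAA at +31 beyond the printed stretch, and Top2a carried its CHR matches as TTTGAA at -179 and -23. Cdk1 held CHR words at -71 and -15, of which the second lies beyond the printed stretch, and it also held E2F cores at -178 and -130. Mcm6 had no CHR but 5 E2F words, 4 of them in the printed stretch. Dsn1 had neither CHR nor CCAAT, and its single E2F core, at -204, lies just outside the printed bases. A match is a description of these letters and not of binding. Mean GC content was 60.0% in mitotic and 56.7% in S phase windows, against 60.6% over genes tested.

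Library totals ran from 5551967 to 12972655 counts, so that 3 counts stand for 0.231 to 0.540 CPM on these deposited totals. This limit covers counting error only. Elsewhere CPM are counts over TMM-scaled library totals, unless the deposited totals are named. Adipocyte markers summed to 64970 CPM or more in every library, as the labelled tissue would have it. Placental (trophoblast) transcripts stood apart in KO vehicle 1 (90.5 CPM summed over 10 markers) and KO Treg 2 (244 CPM), against 12.8 to 32.2 CPM in the other 10 libraries. Judged by the animal numbers in the labels there is a lower and a higher number series. KO vehicle drew its 4 mice from the lower one, and each other group took 2 mice from either. The labels attach no meaning to the series. Each library carries its own animal number, so p-values measure the spread between these mice, and nothing further is said of how they were housed or bred.

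Cdk1 and Dsn1, both mitotic, rose in the fat of knockout mice given vehicle over wild type, and the summed level of the mitotic genes was highest in that group. No S phase gene passed. The difference between the mitotic and the S phase genes was itself not tested. The 24 mitotic genes summed to 79.6 ± 10.2 CPM in KO vehicle, 54.5 ± 6.77 in WT vehicle and 55.4 ± 8.63 in KO Treg (mean ± SD, n = 4 mice each). By library the mitotic sum was 90.5, 85.9, 69.5 and 72.6 CPM in KO vehicle, 61.8, 48.6, 58.8 and 48.9 in WT vehicle, and 44.2, 55.7, 65.3 and 56.3 in KO Treg. On this sum the 4 KO vehicle libraries lay above all 8 others, also on the deposited totals (65.5 to 95 CPM against at most 59.2 in WT vehicle and 63.8 in KO Treg). With each gene weighted alike, as the mean log2(CPM + 0.5), KO vehicle (1.34 to 1.78) still lay above WT vehicle (1.03 to 1.32) but overlapped KO Treg (0.97 to 1.37). Within the lower number series alone they also lay above the WT vehicle libraries (61.8 and 48.6) and the KO Treg libraries (44.2 and 55.7). Cdk1 and Dsn1 carry much of this: without those genes the mitotic sum was 50.5 to 73.9 CPM in KO vehicle, 39.7 to 54.8 in WT vehicle and 37.0 to 57.2 in KO Treg, and the groups overlapped.

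The 11 S phase genes summed to 108 ± 3.56 CPM in KO vehicle, 100 ± 10.5 in WT vehicle and 96.0 ± 5.56 in KO Treg. By library the S phase sum was 110, 111, 103 and 108 CPM in KO vehicle, 106, 88.7, 95.1 and 112 in WT vehicle, and 97.9, 93.7, 103 and 89.6 in KO Treg. KO vehicle overlapped WT vehicle, whose range spans all 4 of its values, while KO Treg lay below KO vehicle by a narrow margin. On the deposited totals KO Treg (86.1 to 100.3 CPM) and KO vehicle (97.3 to 118 CPM) overlapped. The ratio of mitotic to S phase sums was 0.674 to 0.822 in KO vehicle, 0.438 to 0.618 in WT vehicle and 0.452 to 0.636 in KO Treg, so KO vehicle did not overlap either group. Without Cdk1 and Dsn1 the ratio was 0.490 to 0.670, 0.355 to 0.556 and 0.378 to 0.558, and the groups overlapped. These sums are descriptions with no test, and they weigh the more abundant transcripts most. In whole tissue, a change in the number of dividing cells and a change in transcript level per cell cannot be told apart.

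**Figure D2:**
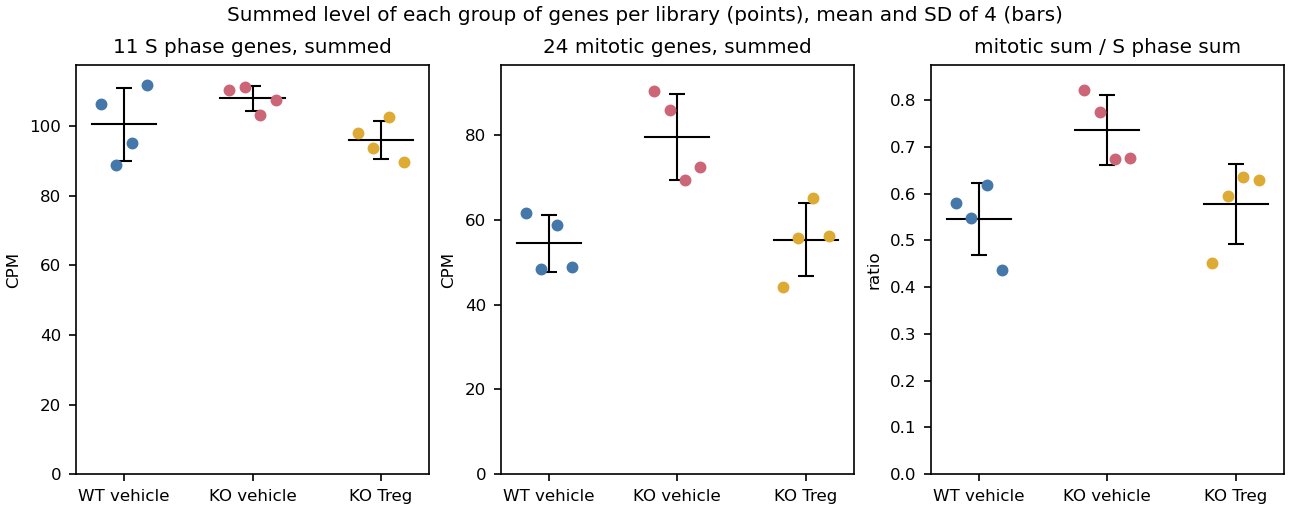
Summed CPM of the 11 S phase genes (left) and of the 24 mitotic genes (middle), and the ratio of the sums (right), by group; points are libraries, bars the mean and SD of 4. KO vehicle stands above the other groups in the middle and right panels, where Cdk1 and Dsn1 are included, and on the left the WT vehicle range takes in both other groups.

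In KO vehicle against WT vehicle, 17 of 20 tested mitotic genes had a log2 fold change above 0, with a median of 0.24 and a range of -0.32 to 1.78. Of 10 tested S phase genes 6 were above 0, with a median of 0.03 and a range of -0.11 to 0.41. Over all genes tested 49.2% were above 0, with a median of -0.0039. By edgeR's quasi-likelihood test with Benjamini-Hochberg adjustment over all genes, Cdk1 and Dsn1 rose, and no S phase gene was called (an adjusted p under 0.05). Values given as a number ± another without a unit are log2 fold changes with their SE. The background was 34 calls among all genes tested, or 0.279%. At an unadjusted p under 0.05, 7 mitotic genes and 1 S phase gene (Mcm3) were higher, against 6.98% of all genes. Groups did not overlap, with KO vehicle higher, for Cdk1, Dsn1, Ccnb1 and Aurka among the tested mitotic genes and for no S phase gene, against 4.17% of all genes. Leaving out Cdk1 and Dsn1, 15 of 18 mitotic genes were above 0, with a median of 0.19. With no filter on low counts 20 of all 24 mitotic genes were above 0, with a median of 0.41, and 5 of 11 S phase genes. Without KO vehicle 1 and KO Treg 2, the libraries with placental transcripts, 14 of 20 mitotic and 5 of 10 S phase genes were above 0. The mitotic median was then 0.24.

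**Figure D3:**
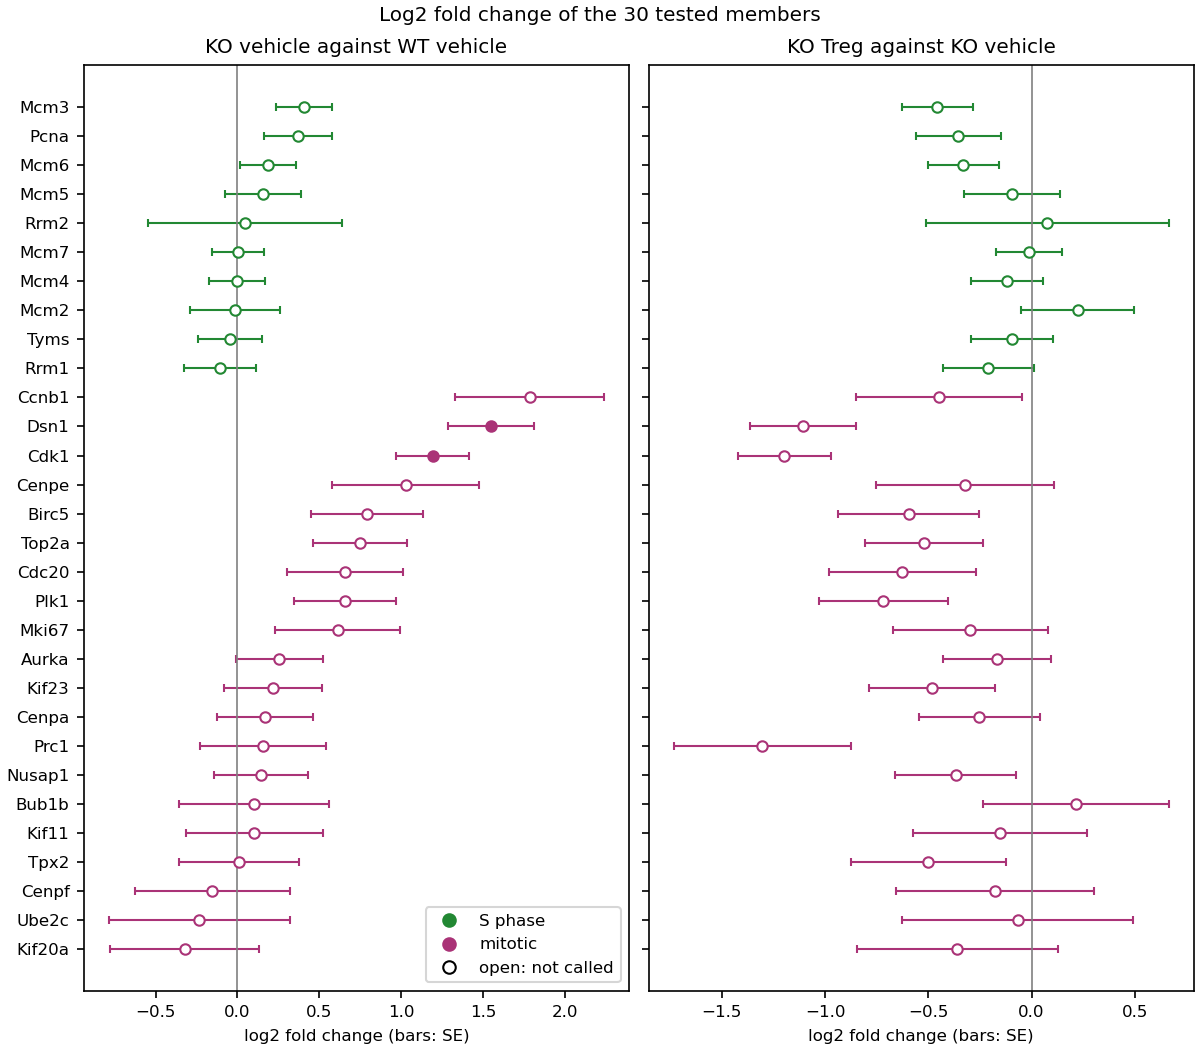
Log2 fold change with SE of the 30 tested members, S phase genes (green) above mitotic genes (purple), for KO vehicle against WT vehicle (left) and KO Treg against KO vehicle (right); filled points passed an adjusted p of 0.05. On the left Cdk1 and Dsn1 are filled and the MCM genes lie near 0; on the right none is filled, and the panels share the KO vehicle libraries.

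Cdk1 (chr10:69335146-69352938, mm10, minus strand) encodes the kinase that drives entry into mitosis. Its level by library was 9.02, 8.58, 13.3 and 12.6 CPM in KO vehicle, 4.82, 4.50, 3.59 and 5.95 in WT vehicle, and 5.10, 4.45, 3.73 and 5.58 in KO Treg. Every KO vehicle library lay above all others, and WT vehicle and KO Treg covered the same range. Cdk1 rose 2.28-fold in KO vehicle over WT vehicle (1.19 ± 0.22 SE on the log2 scale, with an adjusted p of 0.0403 by edgeR). The counts behind it were 79 to 124 in KO vehicle and 20 to 60 in WT vehicle. KO Treg against KO vehicle gave -1.20 ± 0.22 (edgeR adjusted p = 0.248), and KO Treg against WT vehicle -0.0047 ± 0.23. KO vehicle 3 and 4 held the most Cdk1, although KO vehicle 1 and 2 had the larger mitotic sums.

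Dsn1 (chr2:156995265-157007154, mm10, minus strand) encodes a subunit of the MIS12 complex, which ties the kinetochore to the centromere. By library it was at 7.65, 8.58, 5.63 and 7.21 CPM in KO vehicle, 2.09, 2.25, 2.34 and 3.29 in WT vehicle, and 2.13, 3.20, 4.35 and 3.88 in KO Treg. KO vehicle again lay above both other groups, which overlapped. The rise over WT vehicle was 2.92-fold (1.55 ± 0.26 SE on the log2 scale, with an adjusted p of 0.0239 by edgeR), on 50 to 83 counts against 13 to 26. KO Treg against KO vehicle gave -1.11 ± 0.26 (edgeR adjusted p = 0.248), and KO Treg against WT vehicle 0.44 ± 0.28.

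Both calls were lost when the number series entered the fit as a covariate (edgeR adjusted p = 0.0937 for Cdk1 and 0.0533 for Dsn1), in the lower series alone (0.193 for both) and without KO vehicle 1 and KO Treg 2, the libraries with placental transcripts (0.0978 and 0.109). The fold changes held: log2 values under these settings were 1.20 to 1.26 for Cdk1 and 1.52 to 1.80 for Dsn1. Leaving out single libraries ended the Cdk1 call for any of the KO vehicle mice, KO Treg 4 and WT vehicle 1, 2 or 3, with adjusted p from 0.0263 to 0.144 over all 12 fits, and the Dsn1 call for KO vehicle 1, 2 or 4 and WT vehicle 1, 2 or 3 (0.00831 to 0.0968).

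The cyclins that partner CDK1 were at the lower end of detection. Ccnb1, cyclin B1, had 1.48, 1.14, 1.13 and 1.42 CPM in KO vehicle, 0.482, 0.214, 0.359 and 0.380 in WT vehicle, and 0.593, 0.799, 0.932 and 1.46 in KO Treg. Its groups did not overlap between WT vehicle and either knockout group, and its log2 fold change of 1.78 ± 0.46 against WT vehicle was the largest of the 30 tested members, but it did not pass (edgeR adjusted p = 0.108). WT vehicle had only 2 to 6 counts of Ccnb1 per library and KO vehicle 10 to 14. Ccna2, cyclin A2, was below the filter, with counts of 11, 8, 5 and 9 in KO vehicle, 2, 2, 0 and 0 in WT vehicle, and 4, 2, 8 and 10 in KO Treg. Here too KO vehicle lay above WT vehicle in every library, and in a fit without the filter its edgeR adjusted p was 0.147. Ccna2 overlaps Exosc9 on the opposite strand, and reads of such pairs cannot be told apart because no strand setting is given. In all, 9 members had such an overlap, among them Cdc20 (Elovl1), Nusap1 (Oip5), Plk1 (Gm44985), Tk1 (Afmid) and Ube2c (Tnnc2). Ccnb2, cyclin B2, had 1 to 10 counts in KO vehicle and 0 to 16 in WT vehicle, so the groups overlapped.

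**Figure D4:**
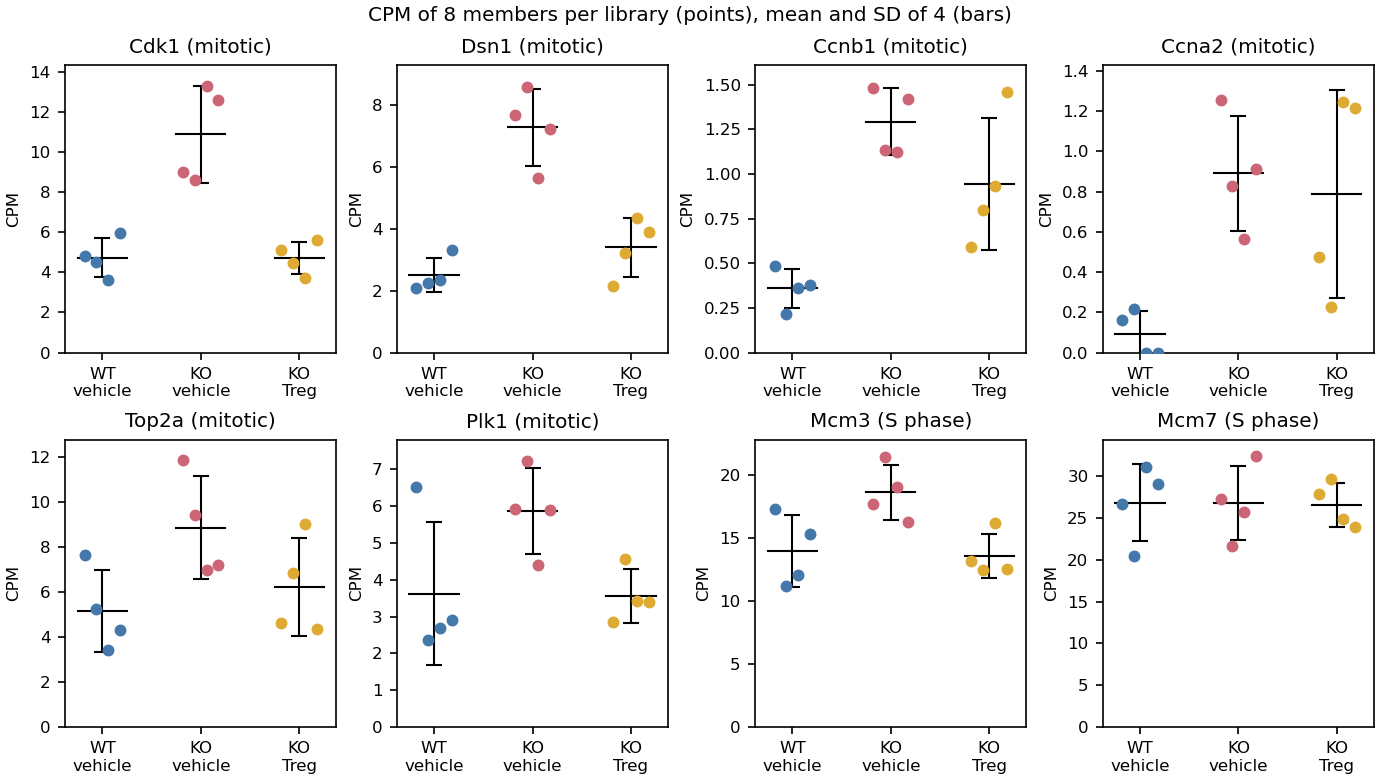
CPM of Cdk1, Dsn1, Ccnb1, Ccna2, Top2a, Plk1, Mcm3 and Mcm7 by group; points are libraries, bars the mean and SD of 4, and each panel has its own axis from 0. KO vehicle lies clear of WT vehicle for the first 4 genes, and Mcm7 is level in all groups.

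Among the other mitotic kinases, Plk1, which acts from mitotic entry to cytokinesis, was at 5.86 ± 1.16 CPM in KO vehicle, 3.62 ± 1.94 in WT vehicle and 3.56 ± 0.72 in KO Treg. WT vehicle 1, at 6.51 CPM, overlapped KO vehicle while its 3 group mates were at 2.36 to 2.91, and the difference did not pass (0.66 ± 0.31, edgeR adjusted p = 0.401). Aurka, the centrosomal Aurora kinase, had 2.64 to 3.26 CPM in KO vehicle and 2.41 to 2.57 in WT vehicle, groups that do not overlap but differ little (0.26 ± 0.26). Aurkb, the Aurora kinase of the chromosome passenger complex, had at most 4 counts in any library. Birc5, survivin in the same complex, was at 4.05 to 6.82 CPM in KO vehicle, 1.61 to 4.58 in WT vehicle and 1.90 to 5.44 in KO Treg (KO vehicle against WT vehicle 0.79 ± 0.34, edgeR adjusted p = 0.349).

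Top2a, the topoisomerase that untangles sister chromosomes, had 11.9, 9.41, 6.98 and 7.21 CPM in KO vehicle, 7.64, 5.25, 3.41 and 4.31 in WT vehicle, and 4.62, 6.85, 9.01 and 4.37 in KO Treg. WT vehicle 1 and KO Treg 3 reached into the KO vehicle range, and the difference from WT vehicle did not pass (0.75 ± 0.29, edgeR adjusted p = 0.281). Mki67, the coat protein of mitotic chromosomes used as a proliferation marker, ranged from 1.24 to 4.91 CPM in KO vehicle, 1.77 to 2.41 in WT vehicle and 1.66 to 3.65 in KO Treg. KO vehicle thus held both the highest and the lowest Mki67 value.

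At the kinetochore, Cenpe, a motor that carries chromosomes to the spindle equator, was at 2.84 ± 0.84 CPM in KO vehicle and 1.32 ± 0.73 in WT vehicle (1.03 ± 0.45, edgeR adjusted p = 0.352). Cenpa, the centromeric histone, Cenpf, and the checkpoint kinase relative Bub1b had log2 fold changes of 0.17, -0.15 and 0.10, all smaller than their SE. Bub1, the checkpoint kinase, had at most 4 counts in any library. Dsn1 was thus the only called member among the kinetochore genes. Spindle motors and bundlers differed by less than their SE between KO vehicle and WT vehicle: Kif11 at 0.10, Kif23 at 0.22, Tpx2 at 0.0093, Nusap1 at 0.14, Prc1 at 0.16 and Kif20a at -0.32. For the APC/C, its activator Cdc20 was at 0.66 ± 0.35 and its ubiquitin-conjugating enzyme Ube2c at -0.23 ± 0.55. Ube2c varied widely within groups: 3.77, 7.96, 1.24 and 4.16 CPM in KO vehicle, 3.30, 3.43, 11 and 3.29 in WT vehicle, and 2.73, 3.88, 7.77 and 2.31 in KO Treg.

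Of the S phase genes, Mcm7, a subunit of the replicative helicase, was at 27.3, 21.7, 25.8 and 32.5 CPM in KO vehicle, 26.7, 20.5, 31.1 and 29.1 in WT vehicle, and 27.9, 29.7, 24.9 and 23.9 in KO Treg. With 160 to 332 counts per library it was the best-counted member, and KO vehicle against WT vehicle gave 0.0026 ± 0.16. Mcm7 overlaps exons of Mir25 and Mir93 on its own strand and of Ap4m1 and Cops6 on the other. Mcm4 had 14.4, 13.0, 14.9 and 14.6 CPM in KO vehicle, 14.5, 12.6, 13.1 and 16.7 in WT vehicle, and 14.5, 9.71, 16.5 and 11.9 in KO Treg. Its log2 fold change in KO vehicle against WT vehicle was -0.0031 ± 0.17. Both genes overlapped fully between groups.

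Mcm3, another helicase subunit, had the largest fold change of the S phase genes, with 17.7, 21.4, 19.0 and 16.2 CPM in KO vehicle, 17.3, 11.1, 12 and 15.3 in WT vehicle, and 13.2, 12.4, 16.2 and 12.5 in KO Treg. Its differences did not pass: 0.41 ± 0.17 against WT vehicle (edgeR adjusted p = 0.334) and -0.46 ± 0.17 in KO Treg against KO vehicle (edgeR adjusted p = 0.461). Mcm6 (0.18 ± 0.17), Mcm5 (0.15 ± 0.23) and Mcm2 (-0.013 ± 0.27) did not pass either. Pcna, the polymerase clamp, was at 8.88 ± 1.53 CPM in KO vehicle, 6.86 ± 1.39 in WT vehicle and 6.94 ± 1.10 in KO Treg (0.37 ± 0.21, edgeR adjusted p = 0.503). In nucleotide supply, Rrm1 (-0.11 ± 0.22) and Tyms (-0.047 ± 0.20) lay within their error. Rrm2, the regulated subunit of ribonucleotide reductase, had 1 to 17 counts and a log2 fold change of 0.048 ± 0.59. Tk1, thymidine kinase, had 0 to 10 counts. Only large differences could have been detected in Rrm2 and Tk1.

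**Figure D5:**
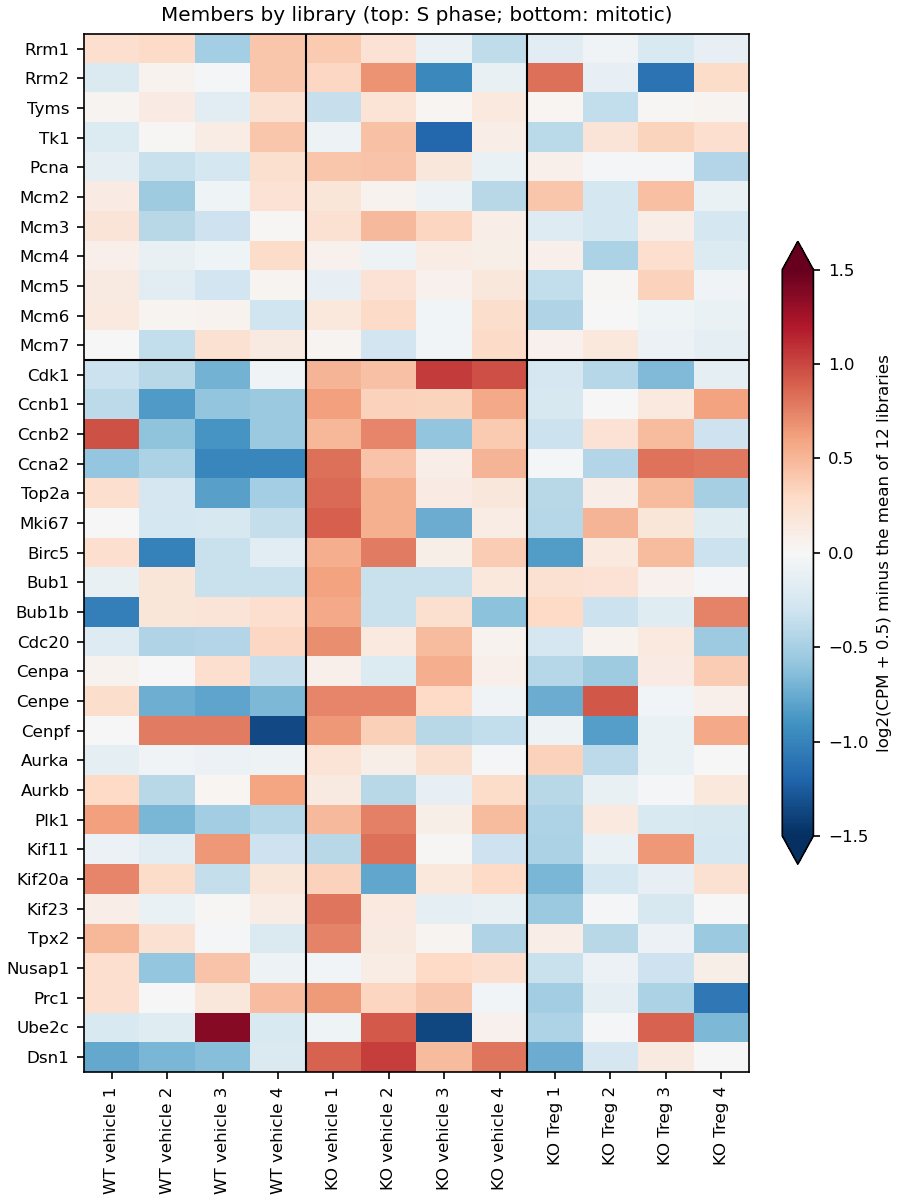
Level of each of the 35 members in each library as log2(CPM + 0.5) minus the gene's mean over 12 libraries, S phase genes above the line and mitotic genes below. Cdk1, Ccnb1, Ccna2 and Dsn1 are red in all 4 KO vehicle columns, most other mitotic genes mainly in KO vehicle 1 and 2, and the S phase rows show no block.

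In KO Treg against KO vehicle, 19 of 20 tested mitotic genes had a log2 fold change below 0, with a median of -0.41, and 8 of 10 S phase genes, with a median of -0.11. Over all genes tested 50.3% were below 0. The KO vehicle libraries are the same as in KO vehicle against WT vehicle, so these counts are not separate evidence. No member was called by edgeR, against a background of 1 called gene (0.00821%). DESeq2 on the same counts called 2 members, Cdk1 (adjusted p = 0.00442) and Dsn1 (0.0256), among 68 genes it called of 12175 in all. Lower at an unadjusted p under 0.05 were 4 mitotic genes (Cdk1, Dsn1, Prc1 and Plk1) and 1 S phase gene (Mcm3), against 5.08% of all genes. KO Treg lay wholly below KO vehicle for Cdk1, Dsn1, Prc1 and Mcm3, against 3.03% of all genes.

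Prc1, which bundles the microtubules of the spindle midzone, differed from Cdk1 and Dsn1 in its pattern. It was at 0.593, 0.914, 0.622 and 0.243 CPM in KO Treg, 1.94, 1.45, 1.58 and 1.02 in KO vehicle, and 1.37, 1.07, 1.26 and 1.65 in WT vehicle. KO Treg lay below both other groups, on 2 to 8 counts, and neither difference passed (-1.30 ± 0.43 against KO vehicle, edgeR adjusted p = 0.380, and -1.15 ± 0.44 against WT vehicle, adjusted p = 1.0). Prc1 overlaps Rccd1 on the opposite strand. Plk1 gave -0.72 ± 0.31 (edgeR adjusted p = 0.521), Cdc20 -0.63 ± 0.36, Birc5 -0.59 ± 0.34 and Top2a -0.52 ± 0.29, none past the threshold. Bub1b was the 1 mitotic gene above 0, at 0.21 ± 0.45.

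KO Treg against WT vehicle gave medians near 0 for both kinds of gene. Of the mitotic genes 9 were above and 11 below 0, with a median of -0.03, and of the S phase genes 4 were above and 6 below, also with a median of -0.03. No gene was called by edgeR among all genes tested (0%), and 2.87% had an unadjusted p under 0.05. Among members these were Ccnb1, higher at 1.34 ± 0.48 (edgeR adjusted p = 1.0), and Prc1, lower. For both, the groups did not overlap, as was so for 99 genes higher and 100 genes lower among all 12175 genes tested. Ccnb1 was thus higher than in wild type in each knockout group, though it passed in neither comparison.

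Other cell cycle genes were read from 8 lists, and 160 of their 211 genes in the tables were tested. No gene of these lists was called in any comparison. Among 18 tested genes of the spindle, chromosome passengers and cytokinesis, all 18 were above 0 in KO vehicle against WT vehicle, with a median of 0.32, and 17 were below 0 in KO Treg against KO vehicle, with a median of -0.26. Its most abundant genes were Tubb5, a beta tubulin (0.20 and -0.19), Pttg1, securin, and Stmn1, stathmin. The other lists had medians nearer 0 in KO vehicle against WT vehicle: G1 and G1/S control had 12 of 19 above 0 (median 0.14), CDK inhibitors and p53 targets 9 of 13 (0.16), replication origin and fork 25 of 40 (0.09), kinetochore and checkpoint 14 of 21 (0.06), and G2/M regulators with the APC/C 14 of 22 (0.06). Condensin and cohesin had 7 of 14 above 0 (median -0.0029), and the DREAM complex with mitotic transcription factors 6 of 13 (-0.09). The most abundant gene of each of these lists gave, as log2 fold changes in KO vehicle against WT vehicle, values that did not pass: Ccnd2, cyclin D2 (0.15), Ccng1, a p53 target (0.30), Rfc1 of the clamp loader (-0.041), Bub3 of the checkpoint (0.032), Anapc11 of the APC/C (0.036), Nipbl, the cohesin loader (0.057), and Rbbp4 of the MuvB core (-0.11).

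A few genes of these lists were chosen for mention after their values were seen, and none passed. Of the 160 tested genes of these lists, 9 had KO vehicle wholly above WT vehicle and 1 wholly below. Over all genes tested, 4.17% had KO vehicle wholly above. Among CDK inhibitors and p53 targets, the list of Cdkn1a, 3 genes were higher and 2 lower at an unadjusted edgeR p under 0.05. E2f1, an activator of S phase genes, was at 25.7, 23.8, 33.4 and 34.4 CPM in KO vehicle, 15.4, 17.8, 15.3 and 19.8 in WT vehicle, and 11.4, 24.4, 24.6 and 23.1 in KO Treg. KO vehicle lay above WT vehicle throughout (0.78, edgeR adjusted p = 0.138), while no S phase member passed. Cdkn1a, which encodes the CDK inhibitor p21, was at 65.5 to 96.8 CPM in KO vehicle, 24.1 to 63.0 in WT vehicle and 21.6 to 51.3 in KO Treg, with no overlap of KO vehicle with either group (1.11 and -1.29, edgeR adjusted p = 0.189 and 0.306). Cdkn1a, Cdk1 and Dsn1 were thus highest in the same group. Uhrf1, which maintains DNA methylation at the replication fork, had 3.15 to 4.79 CPM in KO vehicle against 1.80 to 2.41 in WT vehicle and 1.54 to 2.97 in KO Treg (0.82 and -0.91, edgeR adjusted p = 0.219 and 0.356). Spc25, a subunit of the NDC80 complex that joins the MIS12 complex at the kinetochore, was at 4.14 to 11 CPM in KO vehicle and 2.01 to 4.05 in WT vehicle (1.09, edgeR adjusted p = 0.246).

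Markers of other cell types were read beside these values. All 9 tested macrophage markers were above 0 in KO vehicle against WT vehicle, with a median of 0.13, and 8 of 9 were below 0 in KO Treg against KO vehicle, with a median of -0.19. Their sum was 842 to 1168 CPM in KO vehicle, 799 to 949 in WT vehicle and 756 to 1100 in KO Treg. None passed. Itgax and Cd68 were chosen for mention after their values were seen, and both lay well above the list's median. Itgax, CD11c of fat macrophages and dendritic cells, was at 3.76 to 5.69 CPM in KO vehicle and 0.898 to 1.52 in WT vehicle (1.84, edgeR adjusted p = 0.0597). It had the largest log2 fold change of the 9. Of 6 dendritic cell markers 2 were tested, and neither passed. Both were below 0 in KO vehicle against WT vehicle (median -0.17) and above 0 in KO Treg against KO vehicle (median 0.43). Cd68, a lysosomal protein of macrophages, was at 31.5 to 47.6 and 20.6 to 26.9 CPM (0.72, edgeR adjusted p = 0.146). Endothelial markers summed to 1382 to 1532 CPM in KO vehicle, 1225 to 1465 in WT vehicle and 1357 to 1465 in KO Treg. Stromal progenitor markers summed to 1810 to 2221, 1914 to 3898 and 2142 to 3085 CPM. Of 8 progenitor markers, 7 were below 0 in KO vehicle against WT vehicle, with a median of -0.27. In KO Treg against KO vehicle 5 of them were above 0, with a median of 0.23. Smooth muscle markers were below 0 in KO vehicle against WT vehicle in 6 of 6 (median -1.92, 3 at an unadjusted p under 0.05), with sums of 267 to 744 CPM in KO vehicle, 207 to 1955 in WT vehicle and 170 to 1101 in KO Treg. Mast cell markers were below 0 in 5 of 5 (median -0.78, 3 at an unadjusted p under 0.05), with sums of 12.2 to 19.5, 19.4 to 41.0 and 16.9 to 26.7 CPM. None of these passed. Over all 12175 genes tested, 664 were lower at an unadjusted p under 0.05 in KO vehicle against WT vehicle. Adipocyte markers summed to 64970 to 84341 CPM in KO vehicle, 79700 to 99678 in WT vehicle and 68104 to 94757 in KO Treg. All 6 brown adipocyte markers were below 0 in KO vehicle against WT vehicle (median -0.95). All 6 were also below 0 in KO Treg against KO vehicle (median -1.79), and none passed. Their sums overlapped, at 50.7 to 2138 CPM in KO vehicle, 130 to 5561 in WT vehicle and 99.9 to 429 in KO Treg. T and NK cell markers summed to at most 13.2 CPM in any library. Erythroid markers summed to 84.4 to 127 CPM in KO vehicle, 65.1 to 175 in WT vehicle and 46.2 to 94.0 in KO Treg, with Hbb-bt, Hba-a1 and Hba-a2 (3 of 8 markers) at 0 throughout. The part of any of these cell types in the mitotic values was not tested.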

How the data were processed

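Per the labels' protocols, total RNA of 12 fat samples was made into QuantSeq 3' libraries. For each library the authors deposited a table of raw counts. The submitters' processing notes name TopHat2 2.1.1, HTSeq 0.6.1, BWA 0.7.12 and SAMtools 1.3.1 with mm10. The role of the tools, the annotation and any use of strand in counting were not given there. No length correction was made or needed for 3' counts.

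Genes were filtered with filterByExpr, scaled by TMM and fitted with the robust quasi-likelihood test of edgeR 4.0.16 (R 4.3.3), with the 3 groups in 1 fit. P-values were adjusted by Benjamini-Hochberg over 12175 genes, with a threshold of 0.05. CPM are on TMM-scaled totals; log2 CPM in the plot of members by library added 0.5. The fit was tested on simulated data.

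The members, the lists and the rule for named genes were chosen with earlier results of these data known. The rule names all members, prints each library's value for members that were called, had an unadjusted p under 0.01 or were among the 3 most abundant of their kind, and takes called genes and the most abundant of the other lists. A few further genes of the other lists were named outside this rule, after their values were seen. Alternatives were DESeq2 1.42.0, voom in limma 3.58.1, scaling by RLE or upper quartile, other filters, fits of 2 groups, the number series, and leaving out libraries. Replicate numbers here only name the mice, in accession order. Gene positions and exon overlaps come from GENCODE M21 on GRCm38 (mm10), and promoter windows from RefSeq.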

Additional observations from a re-analysis of the deposited data

Results flagged for a closer look

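In 6 of 111 sets of 4 libraries examined (each member and both summed levels in each group), 1 library stood apart from its group mates by Dixon's test, which chance gives in about 1 of 20. Of these 6, 4 were in WT vehicle 1: Plk1 at 6.51 CPM against 2.36 to 2.91 in the others, Cenpe at 2.41 CPM against 0.898 to 1.01, Ccnb2 at 1.29 CPM against 0 to 0.127, and Bub1b at 0.643 CPM against 2.14 to 2.28. WT vehicle 1 thus had higher Plk1, Cenpe and Ccnb2 but lower Bub1b than its group. It was also the library with the most brown fat transcripts, with a marker sum of 5561 CPM against 130 to 374 CPM in the other WT vehicle libraries. KO vehicle 2 and 3 had brown fat sums of 2138 and 1225 CPM. WT vehicle 1 also had the highest total, 12972655 counts. Whether these traits of WT vehicle 1 go together was not tested. Ube2c in WT vehicle 3 was at 11 CPM against 3.29 to 3.43, on the lowest total of all libraries. Ube2c overlaps Tnnc2 on the opposite strand, and reads of this pair cannot be told apart here. Tyms in KO Treg 2 was at 5.25 CPM against 6.99 to 7.16, in the library with the most placental transcripts.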

How the results depend on the processing

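No called value changed sign under any alternative run. The medians of KO Treg against WT vehicle, near 0, took either sign with single libraries left out (-0.12 to 0.01 for S phase and -0.07 to 0.09 for mitotic genes). The S phase median of KO vehicle against WT vehicle, 0.03, also changed sign. It was -0.0023 with no filter, -0.0096 with at least 1 CPM in 8 libraries and -0.0050 in fits of 2 groups. RLE and upper quartile scaling, voom, both other filters and fits of 2 groups kept 2 called members in KO vehicle against WT vehicle, Cdk1 and Dsn1, as did DESeq2. Adding the number series to the fit, taking its lower part alone and leaving out the placental libraries each gave 0, and leaving out single libraries 0 to 2. Over all genes this comparison had 34 calls, with 259 by DESeq2, 0 with the covariate, 0 in the lower series alone, 3 without the placental libraries and 1 to 125 with single libraries left out; the cause was not tested. The mitotic median of 0.24 was 0.41 with no filter, where 4 more genes of low counts enter. In KO Treg against KO vehicle DESeq2 called 2 members and 68 genes, against 0 and 1 by edgeR. The 1 gene became 0 with RLE scaling, with at least 1 CPM in 8 libraries, in fits of 2 groups, with the covariate, in the lower series alone, without the placental libraries and in all fits with a library left out (0 to 0). The mitotic median of -0.41 was -0.60 in the lower series alone and -0.28 to -0.51 with single libraries left out. In KO Treg against WT vehicle DESeq2 called 1 gene and edgeR 0. No scaling moved the median of all genes by 0.1 on the log2 scale. Depth limits the cyclins, Bub1, Aurkb, Tk1, Rrm2 and Prc1, which had few counts per library. No paired analysis was possible because the labels give no replicate numbers.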
